A study of Mus musculus with 36 samples.

Results

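The cytochrome P450 family 2 genes were examined as the genomic bins whose nearest annotated gene carried a symbol starting with Cyp2, followed by a subfamily letter and a number, in 6 deposited comparisons of H3K9me3 in mouse liver. They made up 513 of 414426 distinct bins and 46 of 22325 gene symbols. RefSeq lists 70 mouse genes with such a symbol, of which 47 are protein coding and 23 are pseudogenes. A bin was listed for 43 of the coding genes and for the pseudogenes Cyp2c53-ps, Cyp2d13 and Cyp2d37-ps. Cyp2c29, Cyp2c50, Cyp2d11 and Cyp2j12 were the coding genes to which no bin was assigned. Because a bin was assigned to the nearest start site at any distance, a bin of a gene often lay outside that gene.

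Family 2 P450 enzymes are haem monooxygenases of the endoplasmic reticulum that oxidise drugs, steroids, fatty acids and other lipids, and the liver is their main site. Their genes lie in tandem arrays with many pseudogenes, and several are expressed mainly in females or mainly in males in adult mouse liver, under the control of the sex-dependent pattern of growth hormone secretion. H3K9me3 is a histone mark of silenced chromatin that covers repeats, pseudogenes and some tissue-specific genes. It is not a measure of expression.

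The animals were offspring on a C57BL/6J background from a colony with floxed Reg3g, and served there as floxed littermate controls. They carried 1 or both floxed alleles (Reg3g-fl/+ or Reg3g-fl/fl), and which animals of a group carried which was not given in the sources used here. Their dams ate a Western-style diet (maternal obesity) or a control diet before pregnancy and through gestation and lactation, and the offspring were weaned at 3 weeks of age and then ate chow. H3K9me3 chromatin immunoprecipitation was sequenced from whole liver of control females, control males, maternal obesity females and maternal obesity males at 3 and 8 weeks, with 4 libraries in each of 8 groups, beside 4 input libraries. Control animals were compared between 8 and 3 weeks within each sex, a span that covers sexual maturation. The 3-week animals were taken before weaning, and the 8-week animals were separate cohorts that had eaten chow since weaning. Age, maturation, the offspring's own diet and cohort therefore cannot be told apart in this comparison. Maternal obesity animals were compared with controls of the same sex and age. The tables held 1 log2 change, mean level as log2 CPM (counts scaled to library size), p-value and false discovery rate (FDR) for each bin and no value of a single library, so the spread is given as an approximate standard error (SE) recovered from the change and its p-value. Group levels are the CPM that the mean and the change imply, and they are comparable within a comparison only. The number of reads behind each library was not held by these tables, and in bulk liver a change in the mark per cell cannot be told apart from a change in the share of cells that carry it. Bins near 19 marker genes of liver cell types, which do not measure expression of these genes, were also looked up. Bins were listed for 16 of these genes in females and 18 in males, and 1 marker had a called bin in each sex, Pecam1 in females and Cps1 in males, where 12.5% and 22.8% of all genes had one.

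Some of the bins with the largest gains and losses in males, the bin that was called in both sexes and a bin that differed with maternal obesity are given here on the plus strand of GRCm38 (mm10), with bases outside RefSeq soft-masked repeats in capitals. The Cyp2c69 bin is whole, and the others are the central 300 bases. The Cyp2a4, Cyp2b13 and Cyp2d12 sequences were largely free of masked repeats, whereas the Cyp2j8 sequence consisted almost wholly of them.
Cyp2c69, gained in males, chr19:39921472-39921761: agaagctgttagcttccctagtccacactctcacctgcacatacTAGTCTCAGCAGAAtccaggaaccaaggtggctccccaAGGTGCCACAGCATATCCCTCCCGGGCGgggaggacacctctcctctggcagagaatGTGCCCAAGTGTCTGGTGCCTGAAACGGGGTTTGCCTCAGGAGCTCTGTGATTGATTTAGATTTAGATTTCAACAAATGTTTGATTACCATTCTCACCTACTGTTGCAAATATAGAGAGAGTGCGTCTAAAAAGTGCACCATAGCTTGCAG
Cyp2a4, gained in males, chr7:26308237-26308536: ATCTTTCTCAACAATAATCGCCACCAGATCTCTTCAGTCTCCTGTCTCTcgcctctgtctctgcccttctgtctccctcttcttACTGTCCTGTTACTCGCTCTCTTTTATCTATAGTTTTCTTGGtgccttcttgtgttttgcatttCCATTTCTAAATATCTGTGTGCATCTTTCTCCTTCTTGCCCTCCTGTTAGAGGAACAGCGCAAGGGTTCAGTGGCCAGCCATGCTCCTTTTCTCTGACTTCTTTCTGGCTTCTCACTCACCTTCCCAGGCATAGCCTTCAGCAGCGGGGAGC
Cyp2b13, gained in males, chr7:26071737-26072036: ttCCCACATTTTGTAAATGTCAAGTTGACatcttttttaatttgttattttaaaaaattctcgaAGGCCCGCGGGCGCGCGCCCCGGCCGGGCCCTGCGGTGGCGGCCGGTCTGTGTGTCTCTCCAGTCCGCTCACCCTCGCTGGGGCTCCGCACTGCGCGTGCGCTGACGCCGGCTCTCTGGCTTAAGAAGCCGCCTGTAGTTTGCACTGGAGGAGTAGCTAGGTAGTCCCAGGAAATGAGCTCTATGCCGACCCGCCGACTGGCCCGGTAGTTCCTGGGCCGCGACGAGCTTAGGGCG
Cyp2d12, lost in males, chr15:82554378-82554677: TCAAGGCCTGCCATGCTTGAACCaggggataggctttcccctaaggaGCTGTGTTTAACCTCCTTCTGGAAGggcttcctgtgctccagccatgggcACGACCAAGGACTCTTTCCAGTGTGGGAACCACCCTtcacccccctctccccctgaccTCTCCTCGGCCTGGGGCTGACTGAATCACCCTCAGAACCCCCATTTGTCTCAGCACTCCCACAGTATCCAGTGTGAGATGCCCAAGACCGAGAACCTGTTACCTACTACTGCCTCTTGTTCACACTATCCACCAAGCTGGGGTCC
Cyp2j8, gained in both sexes, chr4:96463364-96463663: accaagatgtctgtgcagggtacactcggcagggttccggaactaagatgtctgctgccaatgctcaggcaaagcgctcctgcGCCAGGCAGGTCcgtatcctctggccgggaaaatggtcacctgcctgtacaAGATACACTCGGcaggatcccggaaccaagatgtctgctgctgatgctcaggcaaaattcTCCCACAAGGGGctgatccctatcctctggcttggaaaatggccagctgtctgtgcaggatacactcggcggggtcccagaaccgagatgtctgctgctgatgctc
Cyp2d9, higher with maternal obesity in males at 3 weeks, chr15:82432825-82433124: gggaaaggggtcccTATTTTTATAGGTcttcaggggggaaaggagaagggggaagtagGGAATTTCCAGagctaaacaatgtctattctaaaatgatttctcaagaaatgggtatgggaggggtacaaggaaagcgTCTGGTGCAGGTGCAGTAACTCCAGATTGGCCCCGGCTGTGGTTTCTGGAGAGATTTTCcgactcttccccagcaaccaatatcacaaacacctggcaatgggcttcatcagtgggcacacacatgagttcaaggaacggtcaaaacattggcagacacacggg

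In control males, H3K9me3 rose between 3 and 8 weeks at 19 Cyp2 bins and fell at 5, at FDR below 0.05 in the deposited edgeR exact test. The gains lay at Cyp2c69, Cyp2c37, Cyp2b13, Cyp2b9, Cyp2a4, Cyp2a22, Cyp2j8, Cyp2j11 and Cyp2u1, and the losses at Cyp2d9, Cyp2d12 and 1 bin of Cyp2b13. The 24 called bins were 13.3% of the 181 Cyp2 bins listed, and 4.41% of all bins were called in this comparison (2.42% higher and 1.99% lower at 8 weeks). Counted by gene, 11 of the 46 Cyp2 genes had a called bin (23.9%), and 22.8% of all genes did, with a mean of 3.93 bins per Cyp2 gene and 7.17 per gene overall. The median change of the Cyp2 bins was 0.20 on the log2 scale, against -0.05 over all bins. Called gains ranged from 0.97 to 1.92 and called losses from -1.88 to -1.30. Across all bins the change varied with GC content and signal level, and with the median change of bins of like GC and signal subtracted, 14 Cyp2 bins passed (10 higher and 4 lower), as 1.68% of all bins did, and the median over the Cyp2 bins was 0.06, with 101 of 181 positive, against 0 over all bins. Of the 24 called bins 11 still passed then, namely the printed Cyp2a4, Cyp2b13, Cyp2c69 and Cyp2d12 bins and bins of Cyp2a22, Cyp2c37, Cyp2c69, Cyp2d9, Cyp2j8 and Cyp2j11. At the edge of the threshold, a Cyp2b13 bin 49.7 kb upstream of the gene was just inside (FDR = 0.0445) and another 68.7 kb upstream was just outside (FDR = 0.0514).

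**Figure D1:**
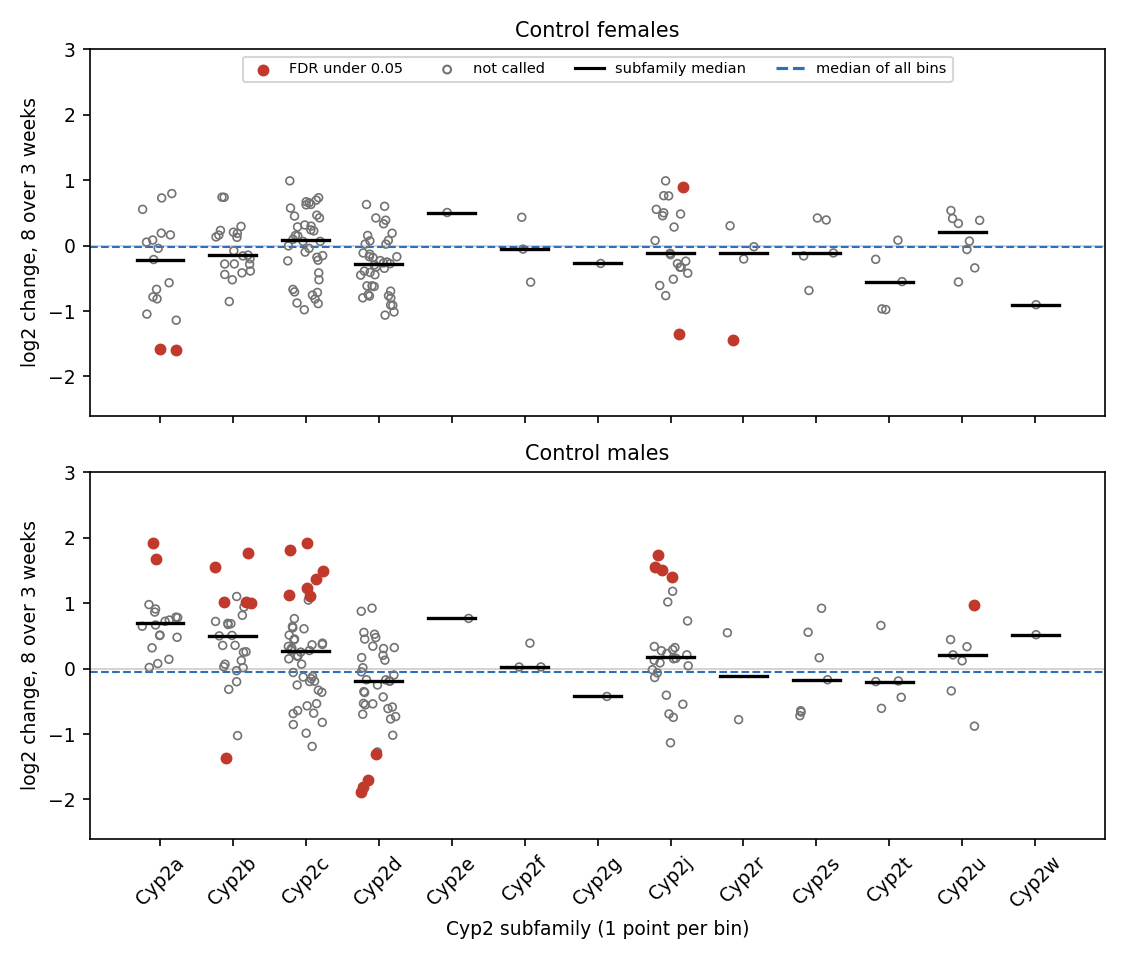
Log2 change of H3K9me3 between 3 and 8 weeks for each Cyp2 bin, by subfamily, in control females and control males. Each point is a bin, filled points passed FDR below 0.05 and the short bars are medians; in males all 18 Cyp2a bins lie above 0 (15 with the GC and signal trend removed) and the 4 called Cyp2d bins lie below it.

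In the Cyp2c subfamily, whose enzymes hydroxylate drugs and epoxidise arachidonic acid, 7 of 46 bins rose in males and none fell. All 7 lay in the 105.656-kb stretch of chromosome 19 (chr19:39886769-39992424) between the start of Cyp2c69 and the start of Cyp2c37. This stretch held 13 bins, of which 12 had a positive change, and their median change was 1.11. The largest gain there was at the Cyp2c69 bin printed above, 34.7 kb upstream of Cyp2c69, where the level went from 2.39 CPM at 3 weeks to 9.07 CPM at 8 weeks (log2 change 1.92, SE 0.36, FDR = 4.8e-05). The bin with the smallest FDR of all Cyp2 bins, chr19:39962424-39962924, lay 29.5 kb upstream of Cyp2c37 and went from 4.21 to 14.7 CPM (1.81, SE 0.30, FDR = 1.72e-06). The other 5 called bins of the stretch changed by 1.11 to 1.49. With the GC and signal trend removed, 3 of the 7 still passed (1.37, 0.94 and 1.72), and the FDR of the others was 0.0769 to 0.569. In females the same stretch held 9 bins, none was called, and the median change was 0.06. Among overlapping Cyp2c69 and Cyp2c37 pairs, the smallest adjusted p for a difference between the sexes was 0.278 (approximate Wald test). No bin of Cyp2c38, Cyp2c39, Cyp2c40 or the other Cyp2c genes was called in either sex, and the lowest change in males was -1.19 at Cyp2c38.

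**Figure D2:**
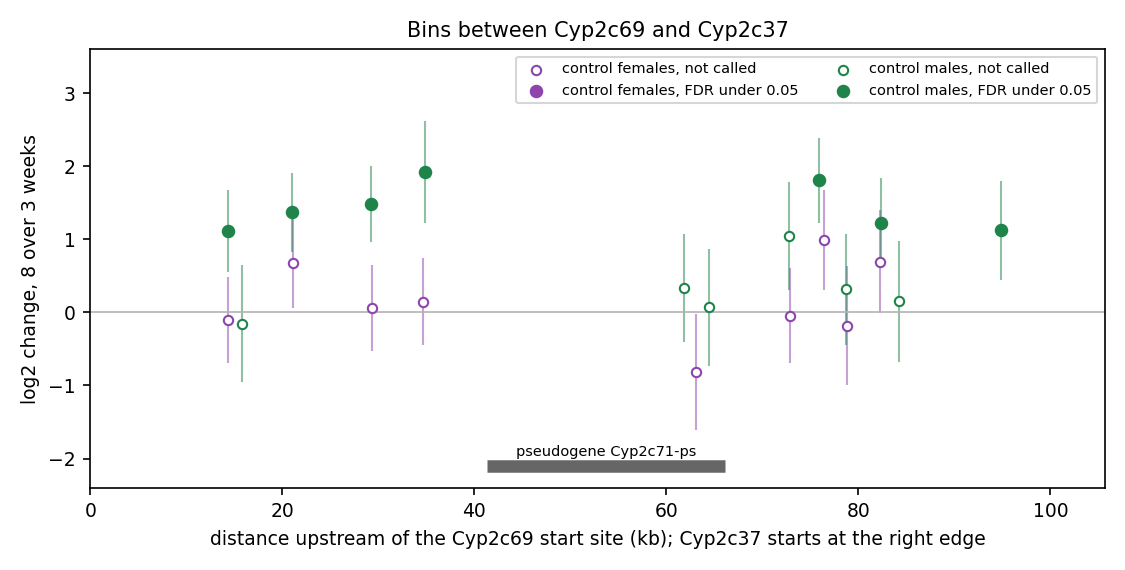
Log2 change between 3 and 8 weeks along the interval from the start of Cyp2c69 (left edge) to the start of Cyp2c37 (right edge), in kb. Points are bins of control males and control females with approximate 95% intervals, and filled points passed FDR below 0.05; 7 of the 13 male bins and none of the 9 female bins were called.

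On chromosome 7, the Cyp2a genes (steroid and coumarin hydroxylases) and the Cyp2b genes (phenobarbital-inducible drug oxidases) lie in 1 array. Each of the 18 Cyp2a bins listed in males had a positive change, with a median of 0.69, and 2 were called. With the GC and signal trend removed, 15 of the 18 were positive, with a median of 0.25, and 2 bins passed. The bin that overlaps Cyp2a4, a steroid hydroxylase expressed mainly in females, began 0.968 kb from the start site and went from 1.76 CPM at 3 weeks to 6.65 CPM at 8 weeks (log2 change 1.92, SE 0.41, FDR = 0.000851). The Cyp2a22 bin lay 20.5 kb upstream of its gene and went from 2.64 to 8.41 CPM (1.67, SE 0.37, FDR = 0.00109). The bins of Cyp2a5, the coumarin hydroxylase, and of Cyp2a12, another steroid hydroxylase, did not pass the threshold and had median changes of 0.74 over 3 bins and 0.72 over 6 bins.

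For Cyp2b13, a gene expressed mainly in females, 4 of 11 male bins rose, 1 fell and 10 had a positive change. The strongest gain, in the sequence printed above, was inside Cyp2b13 and covered the single exon of the pseudogene Rnf170-ps, where the level went from 3.85 to 13.1 CPM (log2 change 1.77, SE 0.32, FDR = 1.97e-05). A second gain, 71.2 kb upstream, went from 3.45 to 10.1 CPM (1.55, SE 0.32). The other gained bins changed by 1.01 and 1.02, the second of them overlapping the pseudogene Cyp2b27-ps. The bin that fell lay 2.36 kb downstream of Cyp2b13 and went from 6.24 to 2.42 CPM (-1.37, SE 0.40, FDR = 0.0295). The neighbouring female-biased gene Cyp2b9 had 1 called bin of 4, which lay 45 kb upstream and rose by 1.02 (SE 0.32, FDR = 0.0432). Cyp2b10, the phenobarbital-inducible enzyme, had no called bin among 7 and changes from -1.02 to 0.72, with the lowest value at its promoter.

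In the Cyp2j subfamily, whose members epoxidise arachidonic acid, 4 of 26 bins rose in males. Both called Cyp2j8 bins lay in introns of the gene (introns 7 and 4). They went from 7.62 to 22.4 CPM (log2 change 1.55, SE 0.27, FDR = 7.83e-06) and from 4.91 to 13.9 CPM (1.51, SE 0.29). The Cyp2j11 bins lay in intron 7 of that gene and in the pseudogene Cyp2j15-ps, 30.9 kb downstream of Cyp2j11, and rose by 1.39 (SE 0.27) and 1.73 (SE 0.31). These bins were covered to 91.4% or more by soft-masked repeats, and the Cyp2j8 intron 4 bin and the Cyp2j11 intron 7 bin were 87.2% identical over 376 aligned bases. The remaining called gain was at Cyp2u1, a fatty acid hydroxylase, where a bin 4.82 kb upstream rose by 0.97 (SE 0.29, FDR = 0.0366).

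The Cyp2d genes on chromosome 15, related to the human debrisoquine hydroxylase, were the subfamily in which each called male bin fell. Of 37 bins 4 were called, and the median change was -0.19. Cyp2d9, a steroid hydroxylase expressed mainly in males, had 3 of them. They lay 25.7 kb upstream, 0.433 kb downstream and 37.5 kb downstream of the RefSeq gene, and their levels went from 6.35 to 1.73, from 5.51 to 1.68 and from 6.80 to 2.76 CPM. The corresponding log2 changes were -1.88 (SE 0.44), -1.71 (SE 0.48) and -1.30 (SE 0.38). The Cyp2d12 bin printed above lay 0.265 kb upstream of its gene, next to the start site, and went from 5.73 to 1.64 CPM (-1.80, SE 0.45, FDR = 0.00669). All 4 bins were below 3 CPM at 8 weeks.

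In control females, 5 of 165 Cyp2 bins were called, 1 higher and 4 lower at 8 weeks, which is 3.03% beside 2.72% of all bins (1.49% higher and 1.23% lower). By gene, 4 of 43 Cyp2 genes had a called bin (9.3%), beside 12.5% of all genes. The median change was -0.15, against -0.03 over all bins. Both called Cyp2a4 bins lay downstream of Cyp2a4 within intron 7 of the neighbouring gene Nlrp9c. They went from 7.84 to 2.63 CPM (log2 change -1.57, SE 0.43, FDR = 0.0217) and from 7.5 to 2.48 CPM (-1.60, SE 0.45, FDR = 0.0245). A bin 29.8 kb upstream of Cyp2r1, a vitamin D hydroxylase, fell by 1.44 on the log2 scale (SE 0.42, FDR = 0.0359), and a bin 31.1 kb upstream of Cyp2j9 fell by 1.35 (SE 0.41, FDR = 0.0434). The gained bin was the Cyp2j8 intron 7 bin, which went from 10.6 to 19.8 CPM (0.90, SE 0.26, FDR = 0.0314). With the GC and signal trend removed, 1 of the 165 bins passed, a lower Cyp2c bin, as 0.95% of all bins did. None of the 5 called bins passed then, though each kept its direction, with absolute log2 changes of 0.60 to 1.31. The Cyp2j9 bin was the last inside the threshold, and the next was the Cyp2j8 intron 4 bin (0.99, FDR = 0.0641).

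The genes known for sex-biased expression in adult liver were described by a list of 6 female-biased genes (Cyp2a4, Cyp2b9, Cyp2b13, Cyp2c39, Cyp2c40 and Cyp2c69) and by the male-biased Cyp2d9. In males 11 of the 31 bins of the female-biased genes were called, 10 higher and 1 lower (35.5%, beside 4.41% of all bins), and the median change was 0.61. In females 2 of the 22 bins of these genes were called, both lower and both of Cyp2a4 (9.09%, beside 2.72%), and the median change was -0.24. All 4 Cyp2a4 bins of females had a negative change (-1.60 to -0.79), whereas all 3 of males had a positive one (0.02 to 1.92), although with the GC and signal trend removed 1 of the 3 was positive. Under the same removal 4 male bins of the list passed, all higher, beside 1.68% of all bins, 21 of 31 were positive and the median was 0.36. In females none of the 22 bins passed with the trend removed, 3 were positive and the median was -0.45. For Cyp2b13 all 6 female bins had a negative change (-0.42 to -0.08), or 5 of them with the trend removed. At Cyp2d9 the median change was -0.36 over 10 male bins and 0.02 over 11 female bins (-0.29 and -0.11 with the trend removed). Cyp2c39 and Cyp2c40 had no called bin in either sex, and their male medians were 0.29 and 0.40. The list was taken from general knowledge with earlier results of these data known, so its counts are a description.

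**Figure D3:**
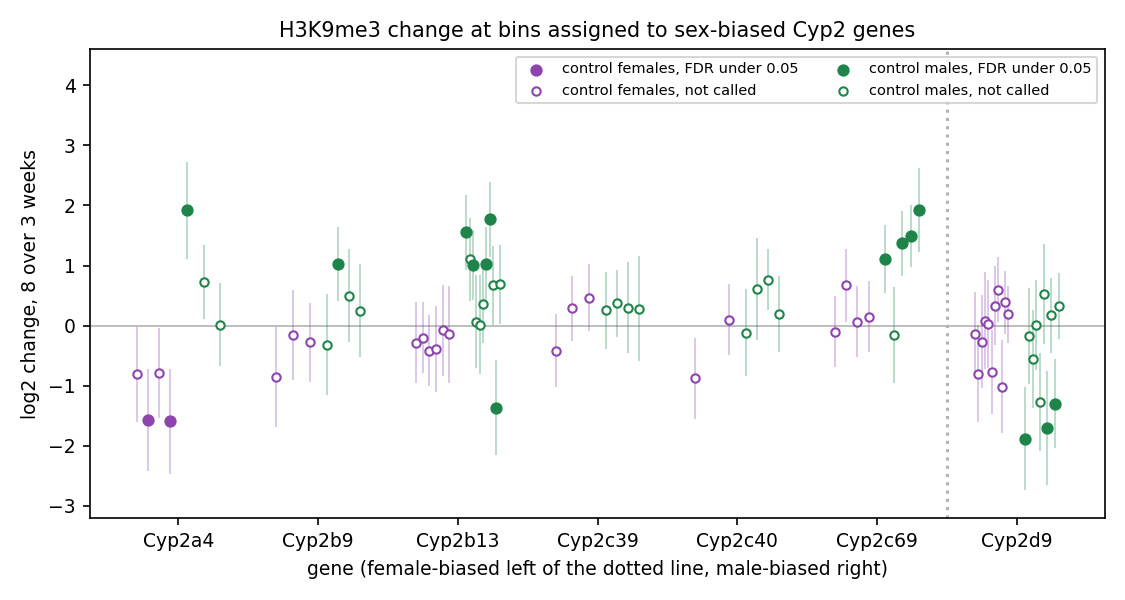
Log2 change of H3K9me3 between 3 and 8 weeks at bins of the female-biased genes Cyp2a4, Cyp2b9, Cyp2b13, Cyp2c39, Cyp2c40 and Cyp2c69 and of the male-biased gene Cyp2d9. Points are bins of control females and control males and filled points passed FDR below 0.05; the female Cyp2a4 bins lie from -1.60 to -0.79 and the male ones from 0.02 to 1.92.

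To set the sexes side by side, 100 pairs of Cyp2 bins were formed that covered at least 50% of each other in the female and male comparisons, which share no libraries. Female bins of these pairs had a median change of -0.07 and male bins one of 0.32, beside 0.05 and 0.13 over all 54633 pairs. The direction was the same in 62 Cyp2 pairs (62%), and in 64.7% of all pairs. The change was called in 2 female and 13 male bins of these pairs, and of the Cyp2 pairs only the Cyp2j8 intron 7 bin was called in both. Over all pairs 1.99% were called in females, 4.36% in males and 0.714% in both. An approximate Wald test of the difference between the sexes gave an unadjusted p below 0.05 in 16 pairs (16%, beside 6.9% of all pairs). None passed after Benjamini-Hochberg adjustment over all pairs. The smallest adjusted p was at the Cyp2b13 bin in Rnf170-ps, where the change was -0.39 in females and 1.77 in males (difference -2.16, 95% interval -3.11 to -1.21, adjusted p = 0.0678). It was 0.0458 when bins overlapping by any base were paired, where 1 of 118 Cyp2 pairs (0.847%) and 16 of all 68430 pairs (0.0234%) passed. No other Cyp2 pair passed under either overlap rule.

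**Figure D4:**
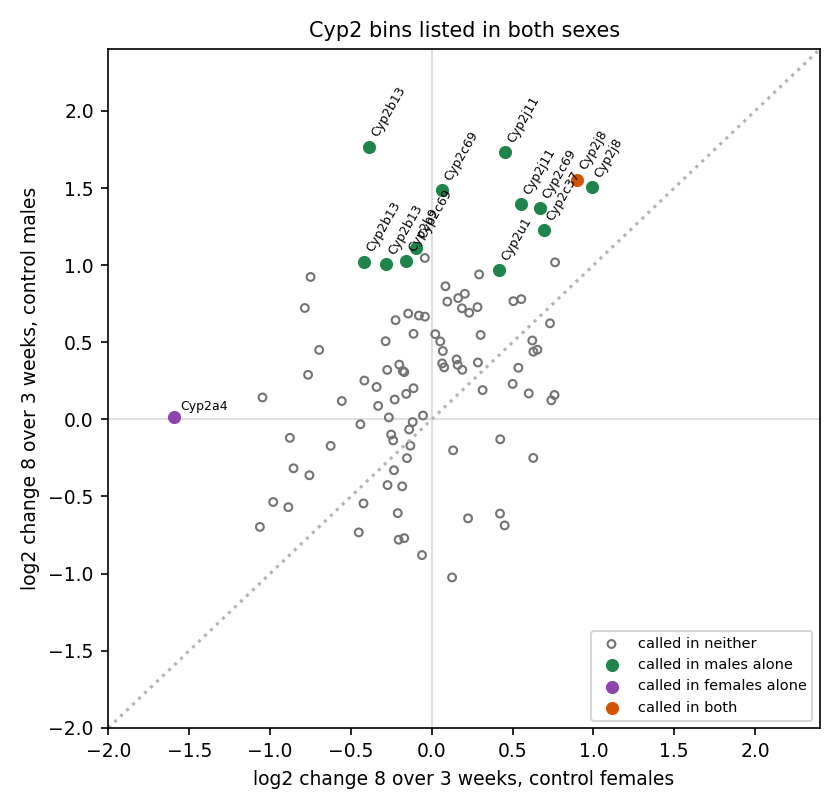
Log2 change between 3 and 8 weeks in control females (horizontal) against control males (vertical) for the 100 pairs of overlapping Cyp2 bins. Filled points are named and were called in males, in females or in both sexes, and the dotted line marks equal change; the Cyp2b13 pair at -0.39 and 1.77 has the smallest adjusted p for a difference.

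Of the 24 bins called in males, 18 came from a peak that overlapped one of the female comparison, and 6 (25%) did not, so for these no female value was listed. The share without a female peak was 29.8% of all called male bins and 34.1% of all male bins. Among the 16 gained bins with a female peak, 10 had a positive female change. The values in females, with the deposited exact test, were 0.99 (p = 0.00489) for the peak of the Cyp2c37 bin with the smallest FDR, 0.06 and 0.15 for the Cyp2c69 bins at 29.0 and 34.7 kb, and -0.81 (p = 0.0431) for the peak over the Cyp2a4 start. Each peak was represented by 1 bin in a table, so bins of a shared peak did not always lie on the same bases.

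Most called male bins lay outside the genes they were assigned to. In RefSeq, 5 of the 24 were inside their own gene, 15 upstream and 4 downstream, and 17 were in no gene. Among all 181 male Cyp2 bins 64 were inside their own gene and 89 in no gene. Tandem arrays also share sequence, which matters where short reads could be placed at several sites. The share of 75-base windows of a bin that occur elsewhere in the genome was 0 for 50.3% of the male Cyp2 bins and for 81.6% of every 100th bin of the table. The Cyp2a22 bin had 91.1% such windows, the strongest Cyp2c37 bin 55.5% and the Cyp2a4 bin 21.3%, while the printed Cyp2c69 bin had none. Among the 128 male Cyp2 bins with under 10% of such windows, 13 were called (9 higher and 4 lower), which is 10.2%, beside 3.66% of the sampled bins with the same property. How the authors treated reads with several placements was not given in the sources used here, and the part of shared sequence in these results was not tested.

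Other genes of the P450 system were taken from a list of 30 redox partners, haem enzymes, nuclear receptors and growth hormone pathway genes. In males 7 of their 221 bins were called, 4 higher and 3 lower, which is 3.17% and below the 4.41% of all bins. The strongest was at Cux2, a transcription factor expressed mainly in female liver. This bin lay inside the gene, in intron 2 of 22 and 3.76 kb upstream of an annotated start site. It went from 5.63 to 20.2 CPM (log2 change 1.84, SE 0.28, FDR = 2.96e-07). Other Cux2 bins changed by 1.27 and -1.35. Onecut1, a hepatocyte transcription factor, and Ahr, the dioxin receptor, each had a gained bin (1.27), while bins of Nr3c1, the glucocorticoid receptor (-1.56), and of Cebpb (-1.47) fell. In females 11 of 196 bins were called, 8 higher and 3 lower (5.61%, beside 2.72% of all bins). They included bins at Trim24 (1.70 and 1.17), at Rxra (1.5, -1.40 and -1.32) and at Esr1, an oestrogen receptor gene (-2.1, SE 0.43, FDR = 0.000387). For the P450 families 1, 3 and 4, 7 of 130 female bins were called (1 higher, 6 lower; 5.38% beside 2.72% of all bins), 4 of them lower bins of Cyp3a41a, Cyp3a41b or Cyp3a57. In males 11 of 158 were called (9 higher and 2 lower, 6.96% beside 4.41%), including Cyp3a41a (1.57 and 1.17), Cyp4a12a (1.53) and Cyp4a12b (1.74). The 1 higher female bin was also of Cyp3a41a (0.79), and it overlapped the male Cyp3a41a bin that rose by 1.17.

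Between maternal obesity and control animals, no Cyp2 bin reached FDR below 0.05 at either age in either sex, as no bin of these 4 tables did. The study's criterion for these comparisons was an unadjusted p below 0.001, and 4 Cyp2 bins met it, all at 3 weeks. In males at 3 weeks the Cyp2d9 bin printed above was higher with maternal obesity, 5.99 against 2.36 CPM (log2 difference 1.35, SE 0.36, exact test p = 0.000222, FDR = 0.509). It lay 0.294 kb from the start of an annotated Cyp2d9 transcript and 19.2 kb upstream of the RefSeq gene. A Cyp2d12 bin 1.26 kb upstream of its gene was also higher, 6.73 against 3.05 CPM (1.14, SE 0.33, exact test p = 0.000617, FDR = 0.528). These were 2 of 205 bins (0.976%), beside 0.278% of all bins. In females at 3 weeks a bin in Cyp2d26 was lower, 2.93 against 7.63 CPM (-1.38, SE 0.39, exact test p = 0.000346, FDR = 0.675), and so was the Cyp2j9 bin 31.1 kb upstream, 2.74 against 6.81 CPM (-1.31, SE 0.40, p = 0.000968, FDR = 0.684). These were 2 of 188 bins (1.06%), beside 0.211% of all bins.

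The median difference over the male Cyp2 bins at 3 weeks was 0.20, against 0.03 over all bins, and 65.4% of the 205 were positive. At an unadjusted p below 0.05 there were 27 such bins (24 higher), which is 13.2% beside 8.83% of all bins. For the female-biased genes 29 of 33 bins were positive with a median of 0.38, beside 0.03 over all bins, and none met p below 0.001. The GC and signal trend was not removed in the maternal obesity comparisons. The strongest bins after those named, by the exact test, were Cyp2c54 in the higher direction (1.37, p = 0.0017) and Cyp2w1, Cyp2d12 and Cyp2j11 in the lower direction (-0.82, -0.71 and -0.75, p = 0.0234 to 0.0441). In females at 3 weeks the median was 0.01, and 20 bins (10.6%) had p below 0.05, beside 7.72% of all bins. The smallest exact test p in the higher direction were at Cyp2c68 (1.09, p = 0.00209), Cyp2b9 (1.05, p = 0.00336) and Cyp2c69 (0.79, p = 0.0076), and the third in the lower direction was at Cyp2b13 (-0.85, p = 0.00842). The control libraries of 3 weeks also entered the age comparison of the same sex, so the 2 sets of values are not independent.

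At 8 weeks no Cyp2 bin met p below 0.001 in females (of 147 bins, beside 0.162% of all bins) or males (of 158, beside 0.114%). At p below 0.05 there were 15 female bins (10.2%, beside 7% of all bins) and 9 male bins (5.7%, beside 6.5%). The medians were 0.04 in both sexes, against 0.01 in females and 0.00 in males over all bins. In females the smallest exact test p were at Cyp2c38 (0.72, p = 0.00536), Cyp2t4 (0.97, p = 0.00658) and Cyp2b13 (0.93, p = 0.0114) among the higher bins, and at Cyp2d12 (-1.06, p = 0.00721), Cyp2f2 (-0.95, p = 0.00819) and the Cyp2r1 promoter (-0.88, p = 0.00847) among the lower. In males the exact test gave the smallest p at Cyp2j13 (1.05, p = 0.00847), Cyp2c66 (1.17, p = 0.0156) and Cyp2a12 (0.66, p = 0.0229) among the higher bins, and at the Cyp2b13 bin in Rnf170-ps (-0.79, p = 0.00835), the Cyp2j13 promoter (-1.19, p = 0.0152) and Cyp2a22 (-0.88, p = 0.0228) among the lower. That Cyp2b13 bin stood at 18.1 CPM in control and 10.4 CPM in maternal obesity males at 8 weeks. It is the bin that rose between 3 and 8 weeks in control males, and the same 8-week control libraries enter both values.

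**Figure D5:**
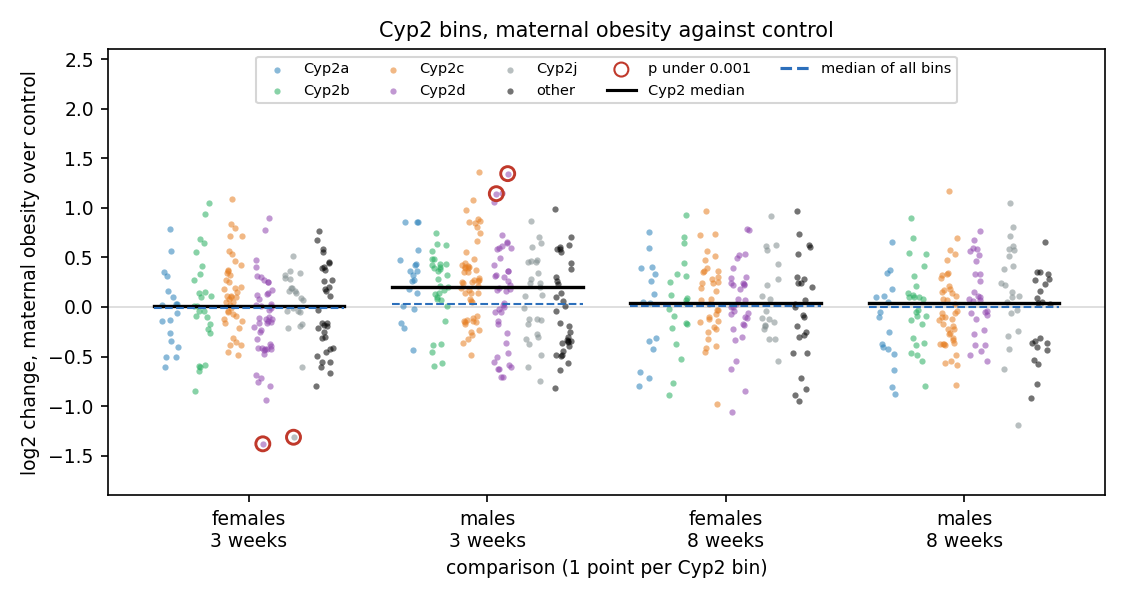
Log2 difference in H3K9me3 between maternal obesity and control offspring for each Cyp2 bin, by sex and age. Each point is a bin, coloured by subfamily, the short solid bars are Cyp2 medians and the dashed bars are medians of all bins. Red rings mark an unadjusted p below 0.001. Ringed are 2 lower bins in females and 2 higher bins in males at 3 weeks, and none at 8 weeks.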

How the data were processed

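Livers of control and maternal obesity offspring of both sexes at 3 and 8 weeks were profiled for H3K9me3, with 4 libraries in each of 8 groups and 4 inputs. From the methods of the study, the authors mapped 75-bp paired-end reads to GRCm38 (mm10) with BWA, called broad peaks with MACS2, merged consensus peaks within each sex, divided long peaks into bins, counted reads and ran the edgeR exact test. The 6 deposited tables hold only those comparisons. For each bin the authors deposited a log2 fold change, a log2 mean CPM, a p-value and an FDR (adjusted p-value). How the 1 bin listed per peak was chosen was not given in the sources used here. The methods give only 1 approximate sequencing depth for all libraries. No table held a value of a single library, so no model was fitted to libraries, and no depth, check or value per library was computed here.

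Age changes were turned so that positive values are higher at 8 weeks. Bins were called at FDR below 0.05 for age and at an unadjusted p below 0.001 for maternal obesity, as in the study. The approximate SE is the absolute change divided by the normal quantile of its p-value. For p above 0.5 it is the median SE of the same log2 CPM decile. Intervals of 95% follow from it. Female and male changes at overlapping bins were compared with a two-sided Wald test, adjusted over all pairs. Scripts (Python 3.11.15, pandas 2.3.3, scipy 1.17.1) were tested on simulated data. Sequences came from RefSeq GRCm38, shared windows of 75 bases were counted over the genome, and bins were aligned with blastn 2.17.0. Nothing in the labels says whether the libraries of a group came from separate litters, so p-values measure the spread between these libraries.

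Named genes were those with a called age bin, the 3 bins with the smallest p in each direction per maternal obesity table, the gene with the most bins of a subfamily and list members with a called bin, of which 1 is not reported here. Members and lists were chosen with earlier results of these data known. Alternatives were other thresholds, adjustment over the deposited bins, a minimum change, signal, distance and feature filters, removal of the GC and signal trend, and, chosen after seeing the data, single-bin peaks and bins with little shared sequence.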

Additional observations from a re-analysis of the deposited data

How the results depend on the processing

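Brackets give the share of all bins called under the same setting. The call of 24 Cyp2 bins in control males (4.41%) stayed within 1.5 times at FDR below 0.01, with 16 (1.62%), and below 0.1, with 30 (7.25%). It did so with adjustment over the deposited bins, with 27 (5.68%), and with a log2 change of at least 1, with 23 (4.27%). Also within 1.5 times were 22 of 122 bins above the median signal (6.54%) and 21 of 165 within 50 kb of the start site (4.25%). The count moved to 10 of 98 for promoter and gene body bins (4.29%) and to 14 of 181 with the GC and signal trend removed (1.68%). It was 8 of 72 for peaks of a single bin (3.29%) and 13 of 128 for bins with under 10% shared windows (3.66% of sampled bins). Counted by gene it was 11 of 46 (23.9%, beside 22.8% of all genes). In control females the 5 called bins (2.72%) became 0 at FDR below 0.01 (1.02%) and 10 below 0.1 (4.68%). They became 3 of 84 for promoter and gene body bins (2.64%), 1 of 165 with the trend removed (0.95%) and 2 of 61 for single-bin peaks (2.29%). Of the named bins, 11 of 24 in males and 0 of 5 in females still passed with the trend removed, and none changed direction. The cause was not tested.

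For maternal obesity at 3 weeks, the 2 of 188 bins of females became 7 at p below 0.01 (1.76% of all bins) and 20 below 0.05 (7.72%). They became 0 at p below 0.0001 (0.02%), at FDR below 0.05 (0%) and above the median signal (0.177%). For promoter and gene body bins the count was 1 of 94 (0.241%). The 2 of 205 bins of males became 10 (2.07%) and 27 (8.83%) at p below 0.01 and 0.05. They became 0 at p below 0.0001 (0.0383%) and at FDR below 0.05 (0%). At 8 weeks the 0 of 147 bins of females became 5 (1.51%) and 15 (7%) at p below 0.01 and 0.05. The 0 of 158 bins of males became 2 (1.32%) and 9 (6.5%). The 100 overlapping pairs became 0 with identical coordinates. The 0 pairs that differed between the sexes became 1 with any overlap of 1 base. No paired analysis was possible because the tables hold no values per library. For the same reason leaving out each replicate, the replicate block, the edgeR quasi-likelihood test and DESeq2 were not run.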

Other observations

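Promoter windows of 250 bases before to 50 bases after a RefSeq start were matched for 40 Cyp2 genes (42 windows). The letters TTCNNNGAA, the palindrome that STAT5-type factors bind, which reads the same on both strands, occurred in 2 of the 42 windows (4.76%) and in 8.3% of all 32851 windows. Bins overlapped 3 of the Cyp2 windows in the female and 7 in the male age comparison. The window of Cyp2a4 held no such match. The female bin that touched it changed by -0.81 between 3 and 8 weeks (deposited exact test, p = 0.0431), and in males at 3 weeks the bin overlapping it was 0.86 higher with maternal obesity (p = 0.00971). The female bin overlapped only the 50 transcribed bases of the window. The window is printed here, with these bases in capitals, because it is a window of a sex-biased gene that a bin overlapped in both sexes.
Cyp2a4 promoter window, plus strand of GRCm38, chr7:26306942-26307241: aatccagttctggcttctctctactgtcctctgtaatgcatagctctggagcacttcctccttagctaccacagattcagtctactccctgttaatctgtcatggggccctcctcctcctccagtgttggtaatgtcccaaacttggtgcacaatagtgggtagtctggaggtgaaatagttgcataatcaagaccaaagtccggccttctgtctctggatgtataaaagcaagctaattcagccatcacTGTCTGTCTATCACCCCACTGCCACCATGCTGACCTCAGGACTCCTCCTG

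Some called bins resembled each other in sequence. The gained bins of Cyp2b13 (49.7 kb upstream) and Cyp2b9 (45 kb upstream) in males were 98.8% identical over 81 aligned bases. The Cyp2d9 bin that fell in males 25.7 kb upstream and the Cyp2d9 bin that was higher with maternal obesity at 3 weeks were 92.8% identical over 167 bases. The gained bins of Cyp2b13 (71.2 kb upstream) and Cyp2c37 (10.7 kb upstream), on different chromosomes, were 88.4% identical over 181 bases.

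Among bins called for age in males, gained and lost together, 15 had an overlapping bin in the maternal obesity comparison of males at 3 weeks. Of these 9 were positive there, all of them gained bins, and the lost bins were all negative (-0.62 to -0.0005). At 8 weeks 4 of 13 such male bins were positive, and all 13 were gained bins. In females at 3 weeks 1 of 4 was positive, and all 4 were lost bins. These comparisons share control libraries, so the values are given side by side only.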
